A study of Rattus norvegicus with 12 samples.

Results

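The sarcomeric myosin light chains and the kinase that phosphorylates them were followed in rat laryngeal muscle 1 week after the recurrent laryngeal nerve was cut. The set named 6 genes, Myl1, Myl2, Myl3, Myl4, Mylpf and Mylk2, chosen by gene symbol out of 14329 genes with a measured value. A platform symbol was found for 4 of them. Mylpf was measured as Myl11, the current RefSeq symbol of the same gene, found through its gene identifier, and is called Myl11 below. Myl4, the embryonic and atrial essential light chain, was not found by symbol or gene identifier and was not analysed here, so 5 genes were described, each with 1 probe set.

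RNA of male F344 rats was measured on 12 arrays, 3 in each of 4 groups. The PCA control and PCA injury groups held the posterior cricoarytenoid muscle, which opens the vocal folds, and the AC control and AC injury groups held the laryngeal adductor complex, which closes them. Injured rats lost a 1 cm segment of the nerve on one side, and control rats had the same surgical exposure with the nerve left whole; both had ketamine and xylazine anesthesia, and there were 10 rats per surgery. The age of the animals is not given in the sources used here. The labels do not say whether arrays came from separate animals or from pools, so each p-value reflects variation among arrays that could be technical only.

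A myosin head carries an essential and a regulatory light chain wrapped around the neck of its heavy chain, where they stiffen the lever that moves along actin. Fast fibres use Myl1 (essential) and Myl11 (regulatory), while slow fibres and the ventricle of the heart use Myl3 (essential) and Myl2 (regulatory). Mylk2, the skeletal muscle light chain kinase, is switched on by calcium and calmodulin and phosphorylates the regulatory chain, which raises the force of fast fibres after repeated stimulation. Laryngeal muscles are known as fast muscles with a minority of slow fibres, the PCA holding more of these than the adductors.

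The muscle identity of the specimens was checked first. The mean log2 value over 11 measured skeletal muscle genes (of 14 listed), among them the actin Acta1 and the creatine kinase Ckm, lay between 11.18 and 11.97 on the 12 arrays, where array medians were 7.11 to 7.17. The mean over 7 cardiac muscle genes was 6.44 to 6.49 in PCA controls and 6.19 to 6.42 on the other arrays. Of these 7, Myh6, the cardiac alpha heavy chain, was called: it read 7.36 to 7.49 in PCA controls and 6.83 to 7.24 on the other arrays, falling by 0.49 ± 0.10 in injured PCA (adjusted p = 0.00409) and standing 0.35 ± 0.10 higher in PCA than in AC controls (adjusted p = 0.0394), as Myl2 did in both comparisons. Its part in the results on Myl2 was not tested. Hcn4, a pacemaker channel, ranged from 6.73 to 7.45, Tnni3, cardiac troponin I, from 5.77 to 6.18, and Myl7, the atrial regulatory chain, from 6.44 to 6.75. In PCA against AC controls 4 of the 7 had an unadjusted p under 0.05 by limma, with a median of 0.23 over the 7. Besides Myh6 these were Hcn4 (0.39 ± 0.13), Tnni3 (0.27 ± 0.09) and Nppa (0.23 ± 0.09), none of the last 3 called. Their part in the difference of Myl2 was not tested. Markers of other tissues differed between arrays. The mean log2 value over 8 thyroid and parathyroid genes was high on 3 arrays, PCA control 1 (10.10), PCA injury 2 (9.80) and AC injury 2 (8.91), against 6.03 to 7.41 elsewhere. The squamous epithelium score over 5 keratinocyte genes was 8.43 to 10.92 in PCA controls and 11.44 to 12.38 on all other arrays.

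Of the 5 genes, Myl2 and Mylk2 fell in injured PCA, Myl2 was also higher in PCA than in AC controls, and none passed the test in the other comparisons. Values given as a ± b are differences of mean log2 values and their SE by limma (n = 3 in each group), and the adjusted p is limma's after Benjamini-Hochberg adjustment over all genes. A gene was called at an adjusted p of 0.05. In injured against control PCA 25.8% of all genes passed, 13.3% higher and 12.5% lower, and 2 of the 5 members passed, both lower. The median over the members was -0.40, against -0.03 over all genes. In PCA against AC controls 10.6% of all genes passed, 3.24% higher in PCA, and 1 of the 5 members passed, higher in PCA. In injured against control AC 1.91% of all genes passed, and by limma 0 members did (1 at an unadjusted p under 0.05, Myl2). The difference of both injury effects was called for 0.154% of all genes and for 0 members (1 at an unadjusted p under 0.05, again Myl2), and injured PCA against injured AC for 0% of genes and 0 members (0 at an unadjusted p under 0.05).

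**Figure D1:**
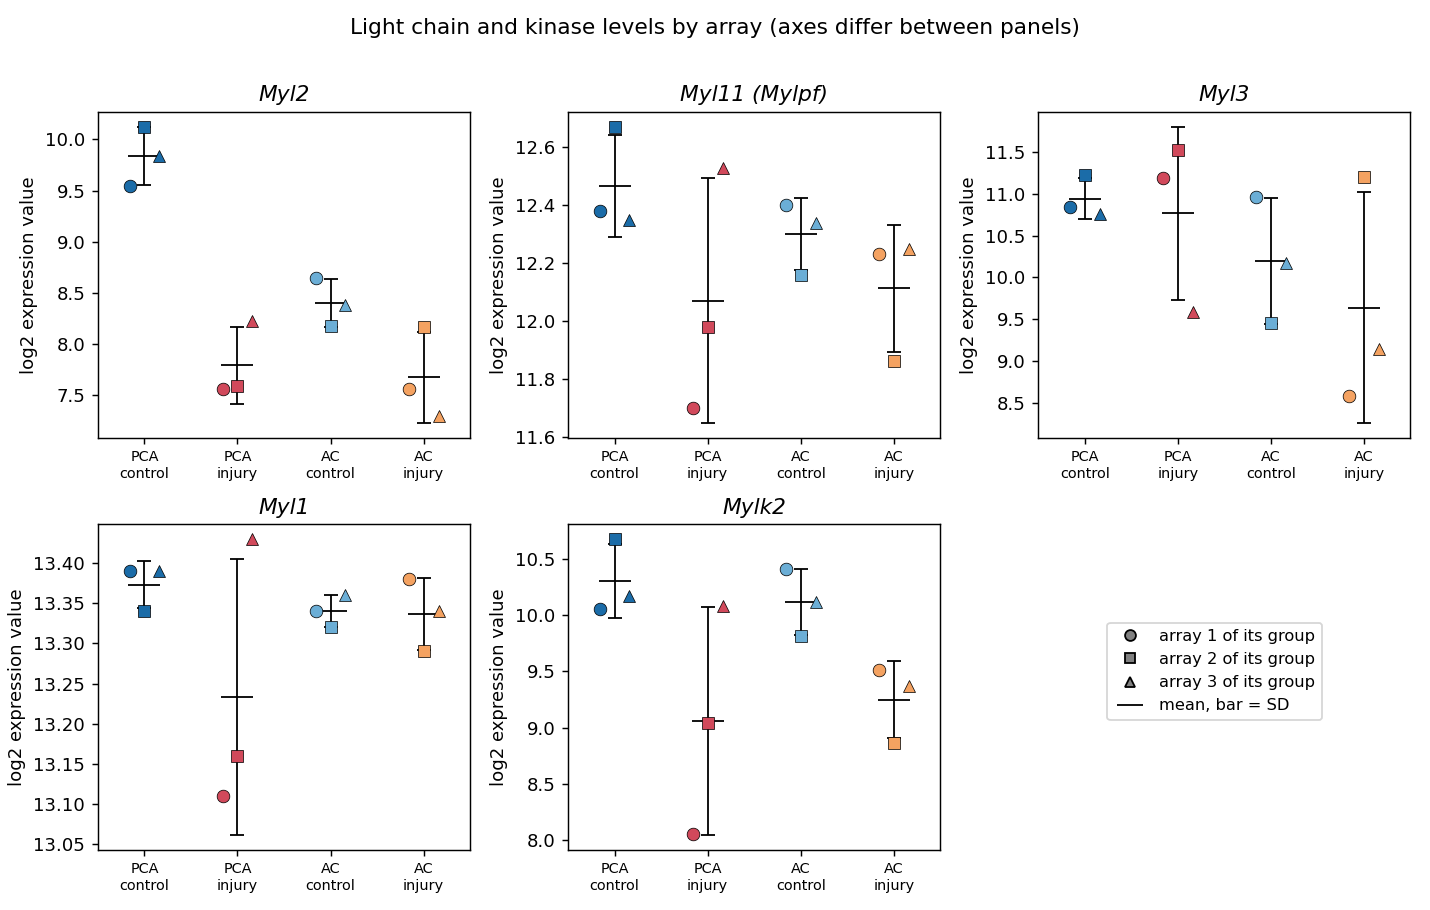
Log2 expression value (y axis, its range set per panel) of the 5 measured genes on each array, by group (x axis). Symbols are single arrays, dashes are group means and bars are the SD of 3 arrays. Myl2 stood at 9.55 to 10.12 in PCA controls and at 7.30 to 8.65 on the other 9 arrays; Myl1 moved by 0.32 in all.

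Myl2, the regulatory chain of slow fibres, showed the clearest differences. It read 9.55, 10.12 and 9.84 in PCA controls 1, 2 and 3, and 7.56, 7.59 and 8.23 in PCA injury 1, 2 and 3. All injured PCA arrays lay below all PCA controls; 18.8% of all genes lay lower without overlap in this comparison. The fall was 2.04 ± 0.25 on the log2 scale, or 4.12-fold (adjusted p = 0.000413), and it ranked 100 by size among all 14329 genes. Fewer slow fibres in a specimen and less Myl2 RNA per fibre cannot be told apart in tissue RNA. The skeletal muscle genes also lay lower in injured PCA: 6 of 11 fell, with a median of -0.42, and their mean per array was 11.18 to 11.76 against 11.72 to 11.97 in controls. With every array centred on those muscle genes, the fall of Myl2 was 1.64 ± 0.21 (adjusted p = 8.7e-05). This centring moved the median of all genes from -0.03 to 0.38. How far the mean of the 11 muscle genes follows the muscle content of a specimen was not tested. Scores of adjoining tissues moved with this comparison too: all 5 squamous epithelium genes, 6 of 7 macrophage genes and 5 of 6 fibroblast genes rose, and all 8 adipocyte and all 7 cartilage genes fell. Their part in the fall of Myl2 was not tested.

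In the AC, Myl2 read 8.65, 8.18 and 8.38 in controls and 7.56, 8.17 and 7.30 in injured arrays. The injured arrays all lay below the controls, AC injury 2 only just. Of the 5 members 2, Myl2 and Mylk2, lay lower without overlap, as did 13.1% of all genes. The difference of -0.73 ± 0.25 did not pass (adjusted p = 0.135), with a 95% interval from -1.27 to -0.19. In this comparison 1 of 7 macrophage genes (Cd68) was called, where 1.91% of all genes were. By limma 5 of the 7 had an unadjusted p under 0.05 (median 0.72), as had 4 of 6 fibroblast genes (median 0.56, 0 called). Of the squamous epithelium, adipocyte, cartilage and skeletal muscle genes 0 were called. The part of these tissues in the difference of Myl2 was not tested. The injury effect on Myl2 in AC was 1.32 ± 0.35 smaller in size than in PCA. That difference of effects did not pass either (adjusted p = 0.0951, 95% interval 0.55 to 2.08), except with array weights, where it was 1.41 ± 0.30 (adjusted p = 0.0427). The weights raised the calls for the difference of effects from 22 to 348 of all 14329 genes.

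The muscles differed in Myl2 in the control animals, and no difference was detectable in the injured ones. In controls Myl2 was 1.43 ± 0.25 higher in PCA than in AC, or 2.70-fold (adjusted p = 0.00525), with no overlap of the groups, as for 17.7% of all genes. In the same comparison 5 of 5 squamous epithelium genes, 2 of 6 fibroblast genes (Dcn, Lum) and 1 of 7 macrophage genes (Lyz2) were lower in PCA; all 7 macrophage genes had an unadjusted p under 0.05, with a median of -0.68. Higher in PCA were 7 of 8 adipocyte genes and 5 of 7 cartilage genes. So were 2 of 11 skeletal muscle genes, 1 of 6 smooth muscle genes and 1 of 7 cardiac muscle genes (Myh6). Their part in the difference of Myl2 was not tested. Centred on the muscle genes, the difference in controls was 1.23 ± 0.21 (adjusted p = 0.00116). In injured animals PCA minus AC was 0.12 ± 0.25 (adjusted p = 0.999), with a 95% interval from -0.42 to 0.66. The group order of Myl2 was therefore PCA control, AC control, PCA injury and AC injury, and each neighbouring pair after the first overlapped. The comparison of the controls shares its arrays with both injury comparisons.

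**Figure D2:**
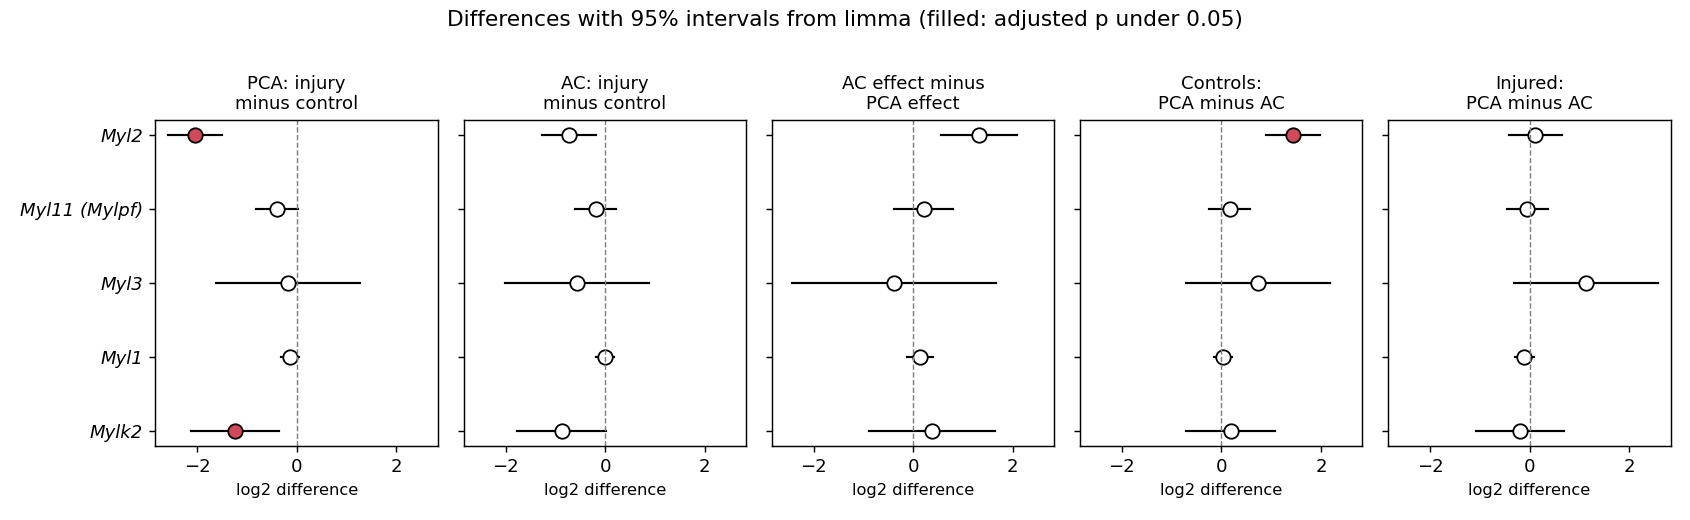
Log2 differences (x axis) of the 5 genes (y axis) in the 5 comparisons, with 95% intervals from limma over all 12 arrays. Filled points passed the test: Myl2 (-2.04) and Mylk2 (-1.25) for injury in PCA, and Myl2 (1.43) for PCA against AC in controls.

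Myl11, the fast regulatory chain that takes the place of Myl2 in fast fibres, moved far less. Its mean level was higher than that of 99.3% of genes, on arrays whose highest values were 13.81 to 14.04. The part of this high level in its small change, and in its ratio with Myl2, was not tested. It read 12.38, 12.67 and 12.35 in PCA controls, 11.70, 11.98 and 12.53 in injured PCA, 12.40, 12.16 and 12.34 in AC controls, and 12.23, 11.86 and 12.25 in injured AC. PCA injury 3 lay between the PCA controls, while PCA injury 1 and 2 lay below all of them, and all neighbouring groups in the order of means overlapped. The difference was -0.40 ± 0.19 in PCA (adjusted p = 0.154, 95% interval -0.81 to 0.02) and -0.19 ± 0.19 in AC (adjusted p = 0.634, 95% interval -0.60 to 0.23). Without PCA injury 3 the PCA value was -0.63 ± 0.15 (adjusted p = 0.0129). Centred on the muscle genes it was 0.01 ± 0.14 (adjusted p = 0.973), so its sign depended on the scaling.

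The balance of slow and fast regulatory chain was followed within each array as the Myl2 value minus the Myl11 value. A constant added to all log2 values of an array cancels in it. A normalisation that acts unlike on low and high values, as quantile normalisation can, does not cancel. Its level carries no meaning between probe sets, but its shift between groups does. It was -2.83, -2.55 and -2.51 in PCA controls and -4.14, -4.39 and -4.30 in injured PCA. The groups stood apart, with a shift of -1.65 ± 0.12 (SE from the group SDs, n = 3; exact two-sided permutation p = 0.1, the smallest that 3 against 3 arrays allow). PCA injury 3, which resembled controls in Myl11, lay with the other injured arrays in this ratio. In AC the ratio was -3.75, -3.98 and -3.96 in controls and -4.67, -3.69 and -4.95 in injured arrays. AC injury 2 lay above all AC controls and the other injured arrays below them, and the shift was -0.54 ± 0.39 (exact permutation p = 0.4). Between controls the ratio was 1.27 ± 0.13 higher in PCA, again without overlap (exact permutation p = 0.1), and between injured groups 0.16 ± 0.39 higher (exact permutation p = 0.8).

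**Figure D3:**
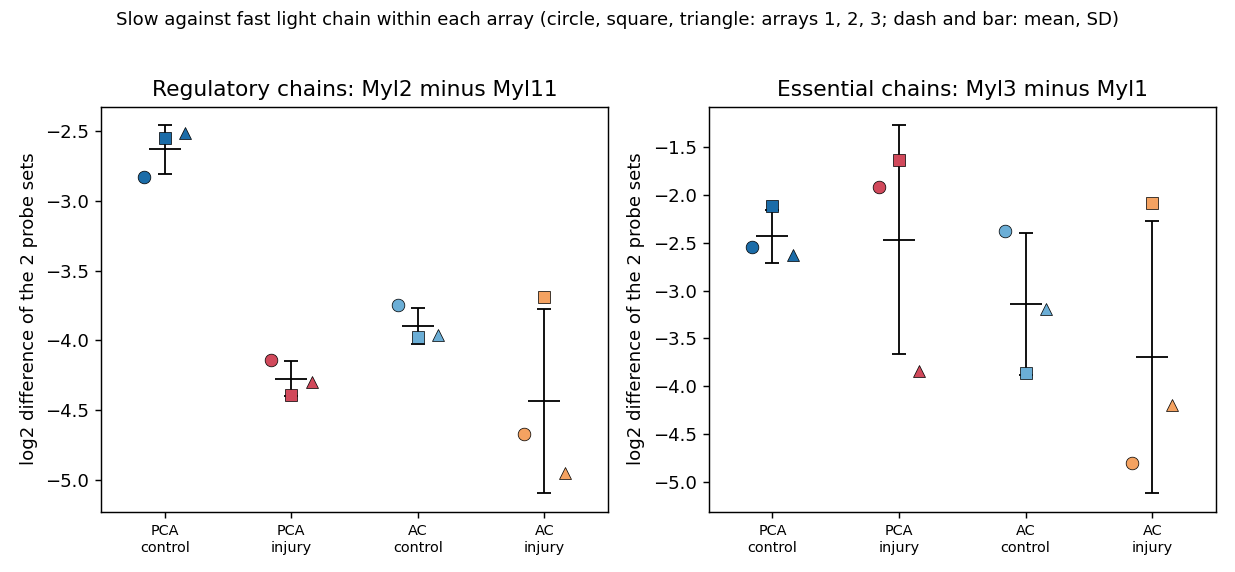
Difference of log2 values (y axis) of slow and fast chain within each array, by group (x axis), for the regulatory pair (left) and the essential pair (right). Symbols are arrays 1, 2 and 3 of a group, dashes and bars the mean and SD. The regulatory ratio lay between -2.83 and -2.51 in PCA controls and at -3.69 or lower on every other array, while the essential ratio overlapped between all groups.

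The essential chains form the other slow and fast pair. Myl3, the slow essential chain, read 10.84, 11.22 and 10.76 in PCA controls and 11.19, 11.52 and 9.59 in injured PCA. PCA injury 1 lay between the controls and PCA injury 2 above them, whereas PCA injury 3 was 1.35 below their mean. The difference was -0.17 ± 0.66 (adjusted p = 0.887), with a 95% interval from -1.62 to 1.27.

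In AC, Myl3 read 10.96, 9.46 and 10.17 in controls and 8.58, 11.20 and 9.14 in injured arrays. AC injury 2 was above every AC control and the other injured arrays below every one, and the difference was -0.56 ± 0.66 (adjusted p = 0.693). PCA minus AC was 0.74 ± 0.66 in controls (adjusted p = 0.505) and 1.13 ± 0.66 in injured animals (adjusted p = 0.999). The latter ranked 11 by size among all genes, yet the arrays of the groups overlapped, and it was 0.60 without AC injury 1, 0.75 without PCA injury 2, 1.72 without PCA injury 3 and 1.91 without AC injury 2. The AC injury value was -0.03 without AC injury 1, -0.18 without AC control 1, -0.31 without AC injury 3, -0.93 without AC control 2 and -1.34 without AC injury 2. None of these values was called (adjusted p = 0.326 to 1). The within-group SD of Myl3, pooled over the 4 groups, was 0.95, larger than that of 99.6% of genes (median 0.13), and all neighbouring groups in the order of its means overlapped. On the 3 arrays of high thyroid and parathyroid score, Myl3 read 10.84 (PCA control 1), 11.52 (PCA injury 2) and 11.20 (AC injury 2). PCA injury 1, where Myl3 read 11.19, had a score of 7.05. The part of this tissue in the spread of Myl3 was not tested. Without the 3 arrays of high score the differences were -0.60 ± 0.57 in PCA and -1.34 ± 0.52 in AC, neither called (adjusted p = 0.522 and 0.308).

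Myl1, the fast essential chain, was the steadiest gene of the set. It ranged from 13.34 to 13.39 in PCA controls, from 13.32 to 13.36 in AC controls and from 13.29 to 13.38 in injured AC, and read 13.11, 13.16 and 13.43 in injured PCA. PCA injury 1 and 2 lay below all other arrays and PCA injury 3 above them all. These values stand near the upper end of the arrays' scale, whose highest values were 13.81 to 14.04. The difference was -0.14 ± 0.08 in PCA (adjusted p = 0.255) and -0.0033 ± 0.083 in AC (adjusted p = 0.988), with 95% intervals from -0.32 to 0.04 and from -0.19 to 0.18. Without PCA injury 3 the PCA value was -0.24 ± 0.07 (adjusted p = 0.0244), and centred on the muscle genes it turned to 0.26 ± 0.14 (adjusted p = 0.134). The ratio of Myl3 to Myl1 within an array, which mainly carries the spread of Myl3, shifted by -0.03 ± 0.71 in PCA (exact permutation p = 1) and by -0.55 ± 0.93 in AC (exact permutation p = 0.6).

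Windows of 250 bases before a transcription start were held by the RefSeq promoter table (build GRCr8) for 3 of the 5 measured genes, 4 windows in all. They are printed because they set the essential pair, one member steady and the other widely spread, and the fast regulatory chain side by side. Myl1 has a window for each of its starts, from which its long and short protein forms are known to be made. Capitals mark matches on either strand to the E-box (CANNTG), bound by myogenic factors such as MyoD, the MEF2 consensus, the CArG box of serum response factor, and TATAAA. All are written 5′ to 3′ on the strand of the gene.
Myl1, upstream start, chr9:75907697-75907946, minus strand: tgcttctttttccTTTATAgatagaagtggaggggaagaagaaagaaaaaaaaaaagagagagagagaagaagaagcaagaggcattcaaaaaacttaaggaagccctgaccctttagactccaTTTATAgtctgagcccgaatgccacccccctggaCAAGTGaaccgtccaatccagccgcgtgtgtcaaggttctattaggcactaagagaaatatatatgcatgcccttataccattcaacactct
Myl1, downstream start, chr9:75897800-75898049, minus strand: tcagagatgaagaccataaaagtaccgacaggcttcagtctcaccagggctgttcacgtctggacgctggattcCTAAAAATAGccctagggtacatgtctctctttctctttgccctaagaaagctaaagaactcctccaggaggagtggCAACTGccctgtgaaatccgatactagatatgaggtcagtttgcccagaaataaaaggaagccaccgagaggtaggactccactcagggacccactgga
Myl11, chr1:191260039-191260288, plus strand: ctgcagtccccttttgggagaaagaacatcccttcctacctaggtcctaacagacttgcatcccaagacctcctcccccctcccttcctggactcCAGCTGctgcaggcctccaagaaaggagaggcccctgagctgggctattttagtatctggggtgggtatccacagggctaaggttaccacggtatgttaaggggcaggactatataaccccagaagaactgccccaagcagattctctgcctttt
Myl3, chr8:119616844-119617093, plus strand: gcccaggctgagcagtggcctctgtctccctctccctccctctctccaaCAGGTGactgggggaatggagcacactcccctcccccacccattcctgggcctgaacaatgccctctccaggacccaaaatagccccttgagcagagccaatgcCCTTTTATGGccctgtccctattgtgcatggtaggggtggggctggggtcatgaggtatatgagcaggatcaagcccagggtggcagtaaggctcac
Each window held 1 E-box, which 65.5% of all 33469 windows of this length hold. The MEF2 consensus was in the downstream Myl1 window (2.96% of all windows), at 176 to 167 bases before the start. The CArG box was in the Myl3 window (1.5% of all windows), at 97 to 88 bases before the start. TATAAA, read on the other strand, occurred in the upstream Myl1 window (12.9% of all windows), at 126 to 121 and at 237 to 232 bases before the start. A match says only that these letters are present.

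Mylk2, the kinase of the regulatory chains, fell in injured PCA, unevenly between arrays. It read 10.06, 10.68 and 10.17 in PCA controls and 8.05, 9.04 and 10.08 in injured PCA. PCA injury 1 and 2 lay far below the controls, while PCA injury 3 lay just above the lowest of them. The fall was 1.25 ± 0.40 on the log2 scale, or 2.37-fold (adjusted p = 0.0428), close to the threshold. It passed in 7 of 21 alternatives, whose adjusted p ran from 0.00279 without PCA injury 3 (-1.76 ± 0.31) to 0.133 without PCA injury 1 (-0.74 ± 0.31). The call was lost without any single one of PCA control 1, 2 or 3, PCA injury 1 or 2, AC control 1, 2 or 3, or AC injury 1 or 3 (adjusted p = 0.053 to 0.133), and without the 3 arrays of high thyroid and parathyroid score (-1.36 ± 0.54, adjusted p = 0.121). Centred on the muscle genes the fall was 0.84 ± 0.27 (adjusted p = 0.028).

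In the AC, Mylk2 read 10.41, 9.82 and 10.12 in controls and 9.51, 8.86 and 9.37 in injured arrays. All 3 injured arrays lay below all controls, but the difference of -0.87 ± 0.40 did not pass (adjusted p = 0.257, 95% interval -1.76 to 0.02). The effects in AC and PCA differed by 0.38 ± 0.57 (adjusted p = 0.791), and PCA and AC by 0.19 ± 0.40 in controls (adjusted p = 0.808) and by -0.19 ± 0.40 in injured animals (adjusted p = 0.999). In the order of group means, from PCA control through AC control and AC injury to PCA injury, the step from AC control to AC injury was the one without overlap (exact permutation p = 0.1).

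PCA injury 3 was the highest or the lowest of the injured PCA arrays in every member. Against the mean of the PCA controls, PCA injury 1, 2 and 3 differed by -2.28, -2.25 and -1.61 in Myl2, by -2.25, -1.26 and -0.22 in Mylk2, by -0.77, -0.49 and 0.06 in Myl11, and by -0.26, -0.21 and 0.06 in Myl1. For these 4 genes PCA injury 3 was the highest of the 3 arrays, and for Myl3 it was the lowest, at 0.25, 0.58 and -1.35. Its skeletal muscle score was 11.76, against 11.18 and 11.38 in PCA injury 1 and 2. With single arrays left out, 4 of the 5 genes passed without PCA injury 3, 2 without AC injury 2, and 1, Myl2, in every other case. Of all 14329 genes, 3558 passed without PCA injury 3, 3549 without AC injury 2, and 2466 to 3508 in the other cases.

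**Figure D4:**
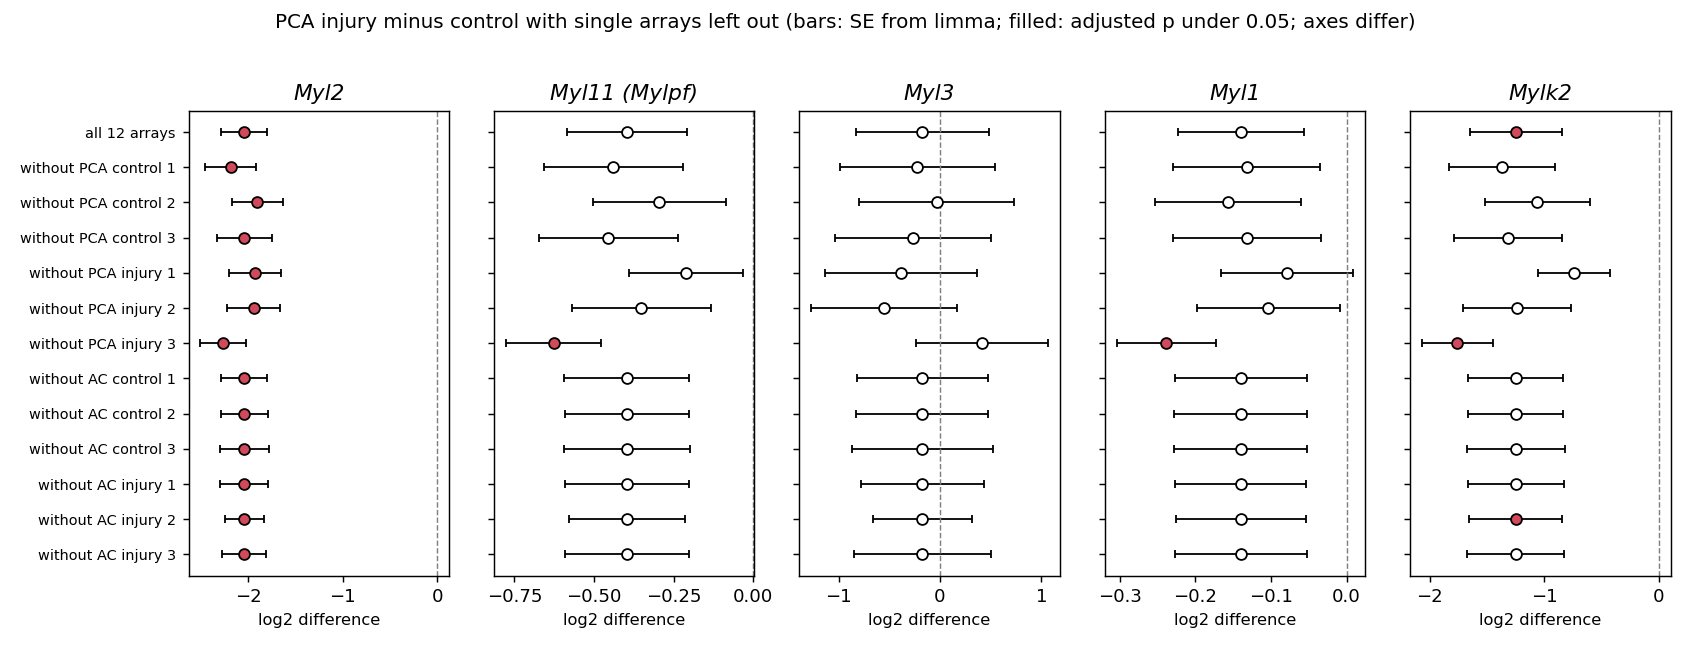
Log2 difference of injured and control PCA (x axis, its range set per panel) for each gene with all 12 arrays and with single arrays left out (y axis). Bars are the SE from limma and filled points passed the test. Myl2 passed in every case, with values from -2.26 to -1.90, and Myl1 and Myl11 passed without PCA injury 3 only.

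The genes most like each member were sought by the root mean square (RMS) difference between log2 profiles over the 12 arrays, each centred on its own mean. Nearest to Myl2 were Myh2 (0.246) and Myh7 (0.277), the heavy chains of fast oxidative and of slow fibres, and Aqp7, a glycerol channel (0.320), where the median over all genes was 0.906 and the RMS of Myl2 about its own mean 0.904. Myh7 read 10.58, 11.38 and 10.82 in PCA controls, 8.09, 7.91 and 8.98 in injured PCA, 9.65, 9.35 and 9.41 in AC controls, and 8.34, 9.14 and 7.78 in injured AC. AC injury 2 was the highest injured AC array in both Myl2 and Myh7, and PCA injury 3 the highest injured PCA array in both. Myh7 was picked for its likeness to Myl2 on these same arrays, so this shared order is not a separate result. Over 8 measured heavy chains 5 fell and 1 rose in injured PCA, where 12.5% of all genes fell and 13.3% rose. Between controls 4 were higher in PCA, as were 3.24% of all genes.

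Nearest to Myl3 were Snap25, a protein of vesicle fusion (0.577), Sim2 (0.664) and Mc5r (0.666), against its own RMS of 0.927, and Myl2 itself was 0.998 away from it. Nearest to Mylk2 were Nt5c1a, a nucleotidase that makes adenosine (0.144), Ppp1r3a, which targets a phosphatase to glycogen (0.157), and Mybpc2, fast myosin-binding protein C (0.188), against its own RMS of 0.716. Nearest to Myl11 were Prkab2, a subunit of the energy-sensing kinase AMPK (0.074), Stradb (0.081) and Tnnt3, fast troponin T (0.085), against its own RMS of 0.266. Myl1 moved so little (RMS 0.091) that its nearest genes, Mrrf, Mmgt1 and Gfral (0.042 to 0.048), were likewise nearly flat. The 12 arrays share their groups, so these distances describe patterns and were not tested.

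**Figure D5:**
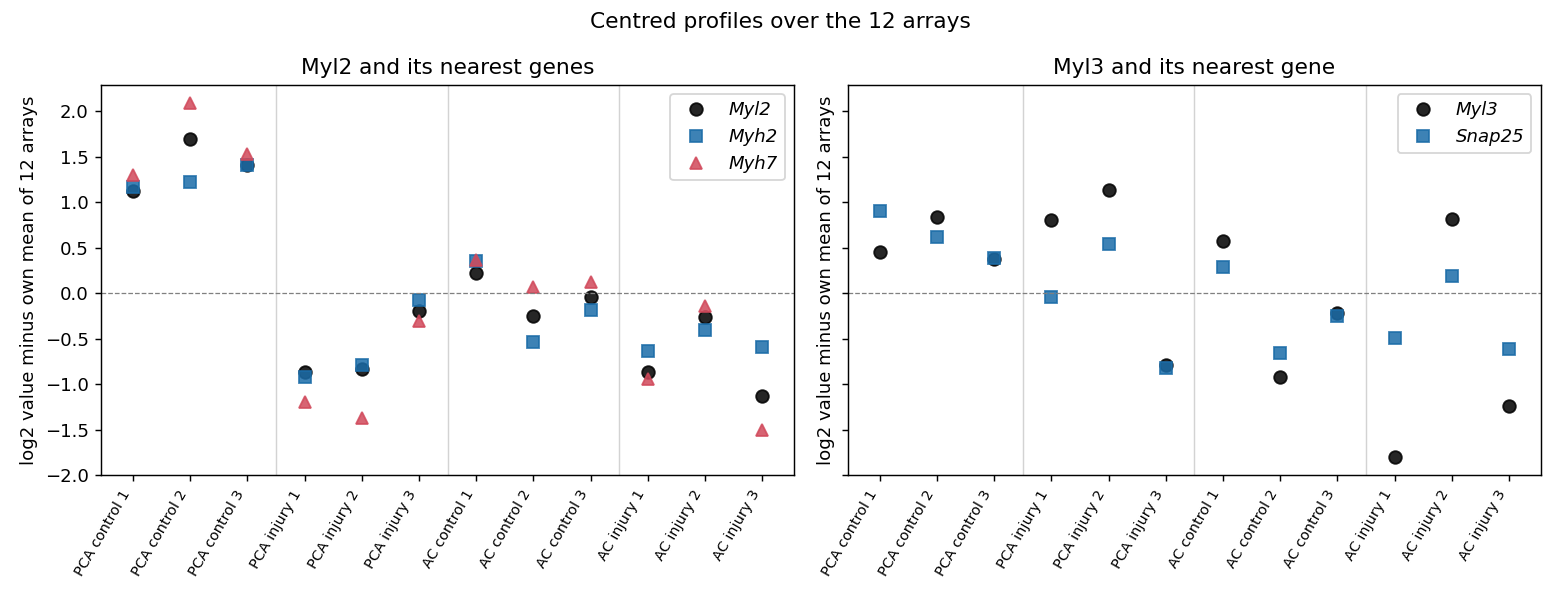
Log2 value minus the gene's own mean (y axis) on each of the 12 arrays (x axis; grey lines divide the groups) for Myl2 with Myh2 and Myh7 (left) and for Myl3 with Snap25 (right). Each point is 1 array. Myl2 lay within an RMS of 0.246 of Myh2 and 0.277 of Myh7, and Myl3 within 0.577 of Snap25.

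Other genes that encode or regulate myosin light chains were counted as a list. Of 12 measured (of 19 listed), 1 rose and 3 fell in injured PCA, where 13.3% of all genes rose and 12.5% fell. The median was -0.13 against -0.03 over all genes. Myl12a, a regulatory chain of nonmuscle myosin, was the one that rose (0.37 ± 0.08, adjusted p = 0.00874). Ppp1r12b, the striated muscle form of the targeting subunit of light chain phosphatase, fell by 0.74 ± 0.11 (adjusted p = 0.00125), Ppp1cb, its catalytic subunit, by 0.40 ± 0.10 (adjusted p = 0.0105), and Mylk, the smooth muscle light chain kinase, by 0.33 ± 0.09 (adjusted p = 0.0199). Ppp1r12b read 10.02 to 10.07 in PCA controls, 9.11 to 9.43 in injured PCA, 9.44 to 9.85 in AC controls and 9.11 to 9.17 in injured AC.

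In injured against control AC, by limma 0 of these 12 passed (3 at an unadjusted p under 0.05). Myl12a was at 0.33 ± 0.08 (adjusted p = 0.0686), Myl9, the smooth muscle regulatory chain, at 0.43 ± 0.11 (adjusted p = 0.0804) and Ppp1r12b at -0.44 ± 0.11 (adjusted p = 0.0749). Between controls Mylk (0.36 ± 0.09, adjusted p = 0.0275) and Ppp1r12b (0.47 ± 0.11, adjusted p = 0.0258) were higher in PCA. Mylk3, the cardiac kinase, stood at 4.88 to 6.13 over all arrays and did not pass in any comparison. Of 6 measured smooth muscle markers 2 fell in injured PCA and 1 in injured AC; their part in the changes of Mylk and Ppp1r12b was not tested.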

How the data were processed

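The values deposited by the authors are log2 expression per probe set. Their log base was read from the range (2.57 to 14.04) and from RMA, which the submitters' processing notes name beside Partek, with no version given. Since RMA usually includes quantile normalisation, a difference is relative to the rest of its array; the number of arrays limits the precision. The background step is not given in the sources used here. Of 27342 probe sets, 15103 had a single symbol, 317 several and 11922 none; where a gene had several, the one with the highest mean was kept, leaving 14329 genes. All 12 arrays entered 1 model with 4 group means in limma 3.58.1 under R 4.3.3 (lmFit, eBayes; 8 residual and 3.14 prior degrees of freedom), two-sided; p-values were adjusted by Benjamini-Hochberg across the 14329 genes and called at 0.05. The model was tested only on simulated data of independent normal noise, which held none of the tissue or array differences described above. Ratios within arrays used exact permutation tests. The members, lists, alternatives and naming rule were chosen with earlier results of these data known. The rule allowed all members and the 3 genes nearest each member with a named locus to be named. It also allowed the light chains and kinases of the pathway list past the threshold (its first listed otherwise). Ppp1r12b, Ppp1cb, Myl7, Myl9, Mylk3, the further heavy chains and the marker genes named singly were chosen after their values were seen. Replicate numbers were not taken as pairs (see the alternatives). Sequences are from RefSeq GRCr8; motif positions count back from the base before the start. Python 3.11.15 and matplotlib 3.10.9 drew the plots. The planned ratio of Myl4 to Myl1 was not run, since Myl4 was not analysed here.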

Additional observations from a re-analysis of the deposited data

How the results depend on the processing

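The 25 log2 differences of the 5 genes were recomputed under 21 alternatives (520 values, since the difference of effects needs all groups): 478 kept direction and side of the threshold, 14 lost the call, 3 gained one and 25 turned sign, none of the last past the threshold. Centring arrays on their median, leaving out dim genes and averaging probe sets changed no call. The last 2 of these could not change the values of the 5 genes. Each has 1 probe set and lies above the median level, so only the prior and the adjustment could move. Myl2 kept its call for injury in PCA (-2.26 to -1.64, adjusted p = 8.7e-05 to 0.00679) and for PCA against AC in controls (1.23 to 1.58, adjusted p = 0.000987 to 0.0238) in all 21; the 14 lost calls were all Mylk2 for injury in PCA. The members called for injury in PCA, 2 with all arrays, numbered 1 with the replicate block, without the 3 arrays of high thyroid and parathyroid score, with only the 2 PCA groups fitted and with a robust trended prior, and 1 to 4 with single arrays left out. For the difference of effects, array weights called 1 member, and 348 of all 14329 genes against 22 without weights. Same-numbered arrays of different groups had deviations from the group means that correlated from -0.393 to 0.339 over genes, 4 of 18 above 0.1, and an array was closest to its own number in 6 of 36 cases. Between PCA and AC arrays numbered 1, 2 and 3, the correlation was -0.393, 0.339 and 0.269 in injured animals. In control animals it was -0.047, -0.335 and 0.029. Pairing of the muscles within a rat was therefore not settled, and the numbers were not taken as pairs. The replicate block lowered the calls over all genes from 3697 to 3239 for injury in PCA and from 274 to 59 for injury in AC. They went from 22 to 0 for the difference and from 1523 to 1162 between controls. Over the alternatives these counts ran from 2257 to 5246, 10 to 703, 0 to 473 and 714 to 2626.

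Centring on the skeletal muscle genes turned the sign, without a call, for injury in PCA of Myl1 (0.26), Myl3 (0.23) and Myl11 (0.0058), for injury in AC of Myl1 (0.13), for the difference of effects of Myl1 (-0.14) and Myl11 (-0.062), for PCA against AC in controls of Myl1 (-0.17), Myl11 (-0.037) and Mylk2 (-0.017), and in injured animals of Myl11 (0.025). Array weights turned Myl3 for injury in PCA (0.22), and leaving out the 3 arrays turned Myl1 for injury in AC (0.020). With single arrays left out, signs turned within these ranges: Myl3 (-0.55 to 0.42) for injury in PCA, Myl1 (-0.025 to 0.020) for injury in AC, Myl3 (-1.16 to 0.15) and Mylk2 (-0.13 to 0.89) for the difference of effects, Mylk2 (-0.0017 to 0.33) in controls, and Myl2 (-0.10 to 0.36), Myl11 (-0.27 to 0.14) and Mylk2 (-0.70 to 0.31) in injured animals. Beyond the arrays left out, the cause was not tested.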
